A study of Mus musculus with 6 samples.

Results

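The 10 genes described here make, control and break down the polyamines putrescine, spermidine and spermine. They were taken as the rows whose Entrez ID maps to *Odc1*, *Amd1*, *Srm*, *Sms*, *Oaz1*, *Oaz2*, *Azin1*, *Sat1*, *Smox* and *Paox*, and all 10 were found among the 13426 genes measured. RNA was sequenced from early LPre-B cells, that is, large pre-B cells at the earlier of 2 substages, from the mouse bone marrow, a dividing B cell precursor stage sorted by surface proteins and cell size. The 3 control (Ctrl) libraries carry the genotype *Upf1* Flox/Flox, *Mb1* +/+ and the 3 libraries labelled *Upf1*-cKO carry *Upf1* Flox/Flox, *Mb1* Cre/+, so loxP-flanked *Upf1* alleles are shared by both groups and only the second has Cre. Cre is expressed from the *Mb1* (*Cd79a*) locus and removes internal *Upf1* exons in B lineage cells. Per the study's methods the mice were age-matched adults of either sex, and the labels give neither sex nor age for a library. The methods describe data points as independent biological replicates. The labels do not say which mouse or mice each library came from, so p-values measure the spread between these libraries, which may in part be technical.

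Polyamines are small positively charged molecules that bind RNA and are needed for translation and growth. Ornithine decarboxylase (ODC1) makes putrescine, and the spermidine and spermine synthases add aminopropyl groups that S-adenosylmethionine decarboxylase (AMD1) provides. Antizymes bind ODC1 and send it to the proteasome without ubiquitin, their own translation needs a ribosomal frameshift that polyamines promote, and antizyme inhibitors bind the antizymes in place of ODC1. Spermidine/spermine acetyltransferase (SAT1), spermine oxidase (SMOX) and acetylpolyamine oxidase (PAOX) run the pathway backwards. UPF1 is the RNA helicase at the centre of nonsense-mediated mRNA decay (NMD), which degrades transcripts whose stop codon lies well upstream of an exon junction, so the comparison asks which of these transcripts differ in level where the label says that *Upf1* is deleted.

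Values are normalised reads, the scale the authors deposited, in which 0.5 is added to a count of reads and the sum is given per 1000000 reads of a scaled library total. Recovered reads totalled from 9732498 to 11006834 per library, and a single row without a name in the annotations used took from 16.41% to 23.77% of them in Ctrl and from 13.75% to 16.55% in the libraries labelled *Upf1*-cKO. The effective library sizes behind the normalised reads ran from 9413527 to 10070479 in Ctrl and from 10248178 to 11862277 in the other group. Values under other scalings are given where they change a call or direction. *Upf1* itself was at 260, 203 and 259 normalised reads in Ctrl libraries 1, 2 and 3 and at 308, 283 and 300 in libraries 1, 2 and 3 labelled *Upf1*-cKO, so it was higher and not lower in the latter (log2 fold change 0.31, SE 0.0892, adjusted p 0.00696). Without Ctrl library 2 this was 0.19, and under scaling to total reads, where the median of all genes was 0.19, it was 0.51. The call was lost in limma with eBayes without trend (0.31, adjusted p 0.0707) and with median centring (0.20, adjusted p 0.0645), and over all alternatives the adjusted p ran from 0.000297 to 0.0707. The row sums the whole gene, including exons outside the deleted ones, and therefore does not check the deletion. *Cd79a*, whose locus carries Cre on 1 allele in the second group, was at 234, 215 and 213 in Ctrl libraries and at 71.6, 75.2 and 73.0 in those labelled *Upf1*-cKO. The 13 listed B cell precursor markers summed to 2670 to 2940 in Ctrl and 3150 to 3360 in the other group. At an adjusted p of 0.05, 6 of them were higher and 2 lower, where 27.7% and 25.0% of all genes were. The 8 listed neutrophil markers, all detected, summed to 123, 17.9 and 14 in Ctrl libraries 1, 2 and 3 and to 462, 355 and 329 in libraries 1, 2 and 3 labelled *Upf1*-cKO.

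The genes of catabolism were higher in the libraries labelled *Upf1*-cKO, and the genes of synthesis and control that passed the test were lower. *Odc1*, *Sms* and *Oaz1* were lower in the libraries labelled *Upf1*-cKO, by 38.4%, 40.6% and 30.5% in group means. The 3 catabolic enzymes, *Sat1*, *Smox* and *Paox*, were higher, at 1.51, 4.53 and 1.56 times the Ctrl mean. *Amd1*, *Srm*, *Oaz2* and *Azin1* did not pass an adjusted p of 0.05. Thus 3 of 10 genes were lower and 3 were higher, where 25.0% and 27.7% of all 13426 genes were (52.7% in either direction), so the number called among them was near that of the transcriptome as a whole. The same 6 genes were those whose libraries did not overlap between groups, which held for 28.0% of all genes in the lower and 30.9% in the higher direction (58.8% in either). The median log2 fold change of the 10 genes was -0.19, against 0.01 for all genes. Ctrl library 2 was the highest Ctrl library for 6 of the 10 genes, and without it the same 3 genes were lower and the same 3 higher. In bulk RNA of this kind, fewer cells of a type and less RNA per cell cannot be told apart.

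**Figure D1:**
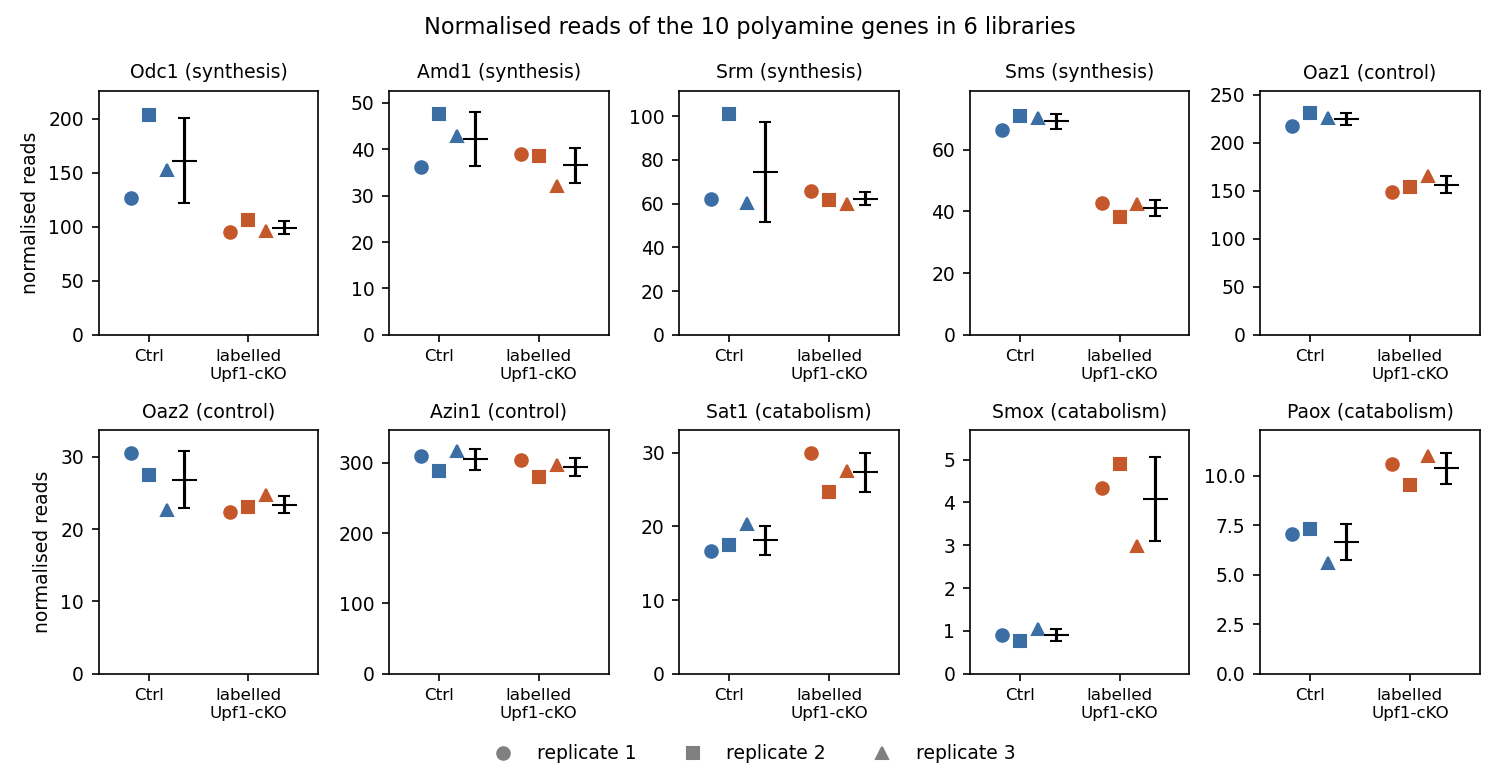
Normalised reads (y axis, from 0, scale differing by panel) of each gene in the 3 Ctrl libraries (blue) and the 3 libraries labelled Upf1-cKO (orange), with the replicate number given by the symbol and the mean ± SD in black. Groups are separate for Odc1, Sms and Oaz1, which are lower, and for Sat1, Smox and Paox, which are higher, and overlap in the other 4 panels.

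The enzymes of synthesis were examined first. *Odc1* (Entrez ID 18263, GRCm38 chromosome 12, 17544794 to 17551505, plus strand), the rate-limiting enzyme, was at 127, 204 and 153 normalised reads in Ctrl libraries 1, 2 and 3 and at 95.4, 106 and 96.5 in libraries 1, 2 and 3 labelled *Upf1*-cKO. Every Ctrl library was above every library of the other group, but the Ctrl libraries were spread widely, with a coefficient of variation of 24.1% against 5.77%. The log2 fold change was -0.67 (95% CI -0.99 to -0.35, SE 0.143, adjusted p 0.00265). Ctrl library 2 was the highest of all, and without it the value was -0.49 (adjusted p 0.000457, in a range over all alternatives from 5.61e-07 to 0.0162).

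*Sms* (Entrez ID 20603, chromosome X, 157443855 to 157492287, minus strand), which makes spermine from spermidine, was the most separated between groups of the enzymes of synthesis. It was at 66.4, 71.0 and 70.2 in Ctrl libraries and at 42.7, 38.2 and 42.5 in the libraries labelled *Upf1*-cKO. Both groups were narrow, and the highest library of the second was 0.642 times the lowest Ctrl library. The log2 fold change was -0.74 (95% CI -0.93 to -0.55, SE 0.091, adjusted p 1.94e-06), lower than that of all but 7.19% of genes. *Sms* and *Sat1* are X-linked and moved in opposite directions, and *Xist*, which is transcribed from an inactive X chromosome and was looked up after these values were seen, was at 2850 to 3270 in Ctrl and 2660 to 2830 in the libraries labelled *Upf1*-cKO.

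*Srm* (Entrez ID 20810, chromosome 4, 148591503 to 148594993, plus strand), the spermidine synthase, was at 62.1, 101 and 60.5 in Ctrl and at 65.6, 61.7 and 59.7 in the libraries labelled *Upf1*-cKO. Apart from Ctrl library 2 the values were within a narrow band, and the groups overlapped. Its log2 fold change of -0.22 (95% CI -0.63 to 0.20, adjusted p 0.351) became 0.02 without that library. It was -0.33 without Ctrl library 1, -0.345 without Ctrl library 3 and -0.015 under scaling to total reads. *Amd1* (Entrez ID 11702, chromosome 10, 40287458 to 40302186, minus strand) was at 36.1, 47.6 and 42.9 in Ctrl and at 39.0, 38.5 and 32.1 in the other group. These groups overlapped too, with a log2 fold change of -0.20 (95% CI -0.44 to 0.04, adjusted p 0.154). A near-identical copy, *Amd2*, was at 0.525 ± 0.205 and 0.522 ± 0.169 (SD, n = 3), and reads of the copies may not be separable. *Amd1* passed the threshold with libraries centred on their medians (-0.31, adjusted p 0.0322) and without Ctrl library 1 (-0.31, adjusted p 0.0282). It was nearer 0 without Ctrl library 2 (-0.11), without library 3 labelled *Upf1*-cKO (-0.11) and under scaling to total reads (-0.002). Over all alternatives its adjusted p ran from 0.0282 to 0.99.

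The leader of *Amd1* is known for a short upstream reading frame through which polyamines slow its translation. It is shown because the decay of transcripts with such frames can depend on UPF1, while the level of *Amd1* RNA did not pass the threshold here. The frame in Amd1-201 has 6 codons before its stop, in a leader of 328 bases, with the start and stop codons in capitals.
Amd1 upstream reading frame: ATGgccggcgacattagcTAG

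The antizymes and the antizyme inhibitor, which set how much ODC1 persists, followed. *Oaz1* (Entrez ID 18245, chromosome 10, 80826656 to 80829290, plus strand), the main antizyme, was at 218, 231 and 226 in Ctrl and at 149, 154 and 166 in the libraries labelled *Upf1*-cKO. Coefficients of variation were 2.76% and 5.72%, and the highest library labelled *Upf1*-cKO was 0.761 times the lowest Ctrl library. The log2 fold change was -0.52 (95% CI -0.68 to -0.37, SE 0.0749, adjusted p 1.14e-05). *Oaz2* (Entrez ID 18247, chromosome 9, 65668001 to 65690300, plus strand), a second antizyme, was at 30.5, 27.4 and 22.6 in Ctrl and at 22.3, 23.1 and 24.7 in the other group. Ctrl library 3 lay among the libraries labelled *Upf1*-cKO, and the log2 fold change of -0.18 (95% CI -0.44 to 0.08, adjusted p 0.223) was not past the threshold. It was -0.09 without Ctrl library 1 (adjusted p 0.587) and -0.30 without Ctrl library 3 (adjusted p 0.0556), with adjusted p from 0.0529 to 0.945 over the alternatives.

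*Azin1* (Entrez ID 54375, chromosome 15, 38487427 to 38519266, minus strand), an ODC1-like protein without enzyme activity that captures antizyme, was the gene with the highest normalised reads among the 10 (not corrected for length). Its values were 310, 288 and 316 in Ctrl and 304, 280 and 297 in the libraries labelled *Upf1*-cKO, which overlapped. The interval of its log2 fold change was the narrowest along with that of *Oaz1* (-0.05, 95% CI -0.21 to 0.10, adjusted p 0.556), so falls by more than 0.21 and rises by more than 0.10 on this scale lay outside it. Under scaling by total reads, where the median of all genes was 0.19, *Azin1* was at 0.15 and *Oaz2* at 0.01, that is, -0.04 and -0.18 relative to that median.

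The frameshift sites of both antizymes are shown because a ribosome that does not shift there meets a stop codon far upstream of the last exon junction. In both, the last codon read before the shift and the TGA stop are in capitals. The *Oaz1* window (GRCm38, chr10:80828280-80828309, plus strand) holds a stop that comes after 68 codons of the reading frame annotated for Oaz1-207. In the *Oaz2* window (chr9:65686257-65686286, plus strand) the stop comes after 32 codons of the frame annotated for Oaz2-206. The bases are read from Oaz1-205 and Oaz2-203. Each stop is followed by 3 exon junctions.
Oaz1 frameshift site: cctcggtggtgcTCCTGAtgtccctcaccc
Oaz2 frameshift site: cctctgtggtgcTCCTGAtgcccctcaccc
The windows are identical at 28 of 30 bases, and the RNA of *Oaz1* was lower while that of *Oaz2* overlapped between groups.

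The catabolic genes were all higher. *Sat1* (Entrez ID 20229, chromosome X, 155213132 to 155216449, minus strand), which acetylates spermidine and spermine for export or oxidation, was at 16.6, 17.4 and 20.3 in Ctrl and at 29.9, 24.6 and 27.5 in the libraries labelled *Upf1*-cKO. The lowest library of the second group was 1.21 times the highest Ctrl library. The log2 fold change was 0.57 (95% CI 0.31 to 0.83, SE 0.125, adjusted p 0.00087).

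*Smox* (Entrez ID 228608, chromosome 2, 131491496 to 131525922, plus strand), which oxidises spermine back to spermidine with release of hydrogen peroxide, was the least abundant and the most changed of the 10. It was at 0.903, 0.758 and 1.04 in Ctrl and at 4.34, 4.91 and 2.99 in the libraries labelled *Upf1*-cKO, from 8, 7 and 10 reads and 44, 54 and 35 reads. The lowest library of the second group was 2.87 times the highest Ctrl library. Its log2 fold change was 1.40 (95% CI 0.95 to 1.86, SE 0.217, adjusted p 2.64e-05), and 3.29% of all genes had a larger one. The value depended on how low counts were treated, being 2.16 with no pseudocount (adjusted p 9.22e-05) and 2.23 with edgeR on recovered reads (adjusted p 5.6e-05), with adjusted p from 7.45e-06 to 0.000526 over the alternatives.

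*Paox* (Entrez ID 212503, chromosome 7, 140115799 to 140137224, plus strand), which oxidises the acetylated polyamines that SAT1 makes, was at 7.06, 7.32 and 5.61 in Ctrl and at 10.6, 9.51 and 11 in the other group. The groups did not overlap, and the log2 fold change was 0.57 (95% CI 0.22 to 0.92, SE 0.166, adjusted p 0.00725). After quantile normalization it was 0.39 (adjusted p 0.0576). *Paox* shares exons with *Echs1* on the opposite strand, and no strand setting is given for the counting, so the assignment of reads in the overlap is uncertain. *Echs1* was itself higher, at 26.9, 27.9 and 27.8 in Ctrl and at 35.4, 39.5 and 42.0 in the libraries labelled *Upf1*-cKO (log2 fold change 0.48, adjusted p 0.000775).

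Neutrophil markers moved between groups in the same direction as these 3 genes. Of the 8 markers, 4 were higher and 0 were lower, and each was detected. Over all genes 27.7% were higher and 25.0% lower, against which the counts of markers called here are to be read. Within Ctrl, library 1 had the highest neutrophil sum (123 against 17.9 and 14) while *Sat1* was lowest there and *Smox* and *Paox* were at their middle values. The part of such cells in the higher *Sat1*, *Smox* and *Paox* was not tested. Markers of plasma cells moved with *Odc1*, *Sms* and *Oaz1*, their 3 genes summing to 28.4 to 40.3 in Ctrl and 14 to 18.2 in the other group (2 lower), and their part was not tested either. Sums for the 5 markers of macrophages and dendritic cells (10.5 to 16 and 8.81 to 13.2) and the 3 erythroid markers with a row here (6.82 to 11.8 and 8.39 to 9.42) overlapped. The 2 T and NK cell markers with a row summed to 1.17 to 1.59 and 3.79 to 5.27, with 1 of them higher.

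**Figure D2:**
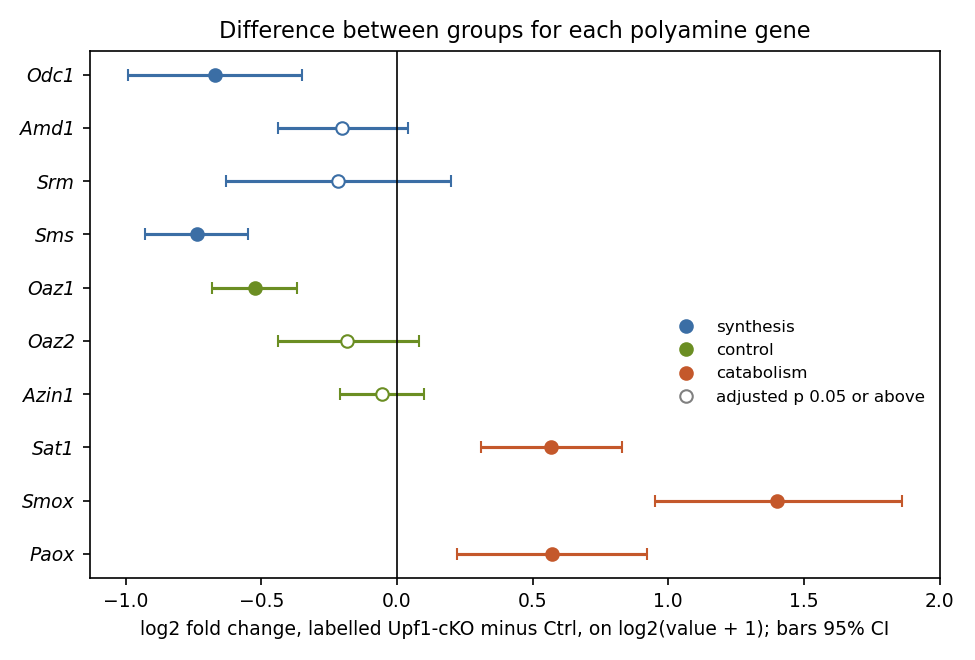
Log2 fold change on log2(value + 1), labelled Upf1-cKO minus Ctrl (x axis), for each gene with its 95% confidence interval from limma, coloured by role. Filled points passed an adjusted p of 0.05. The 3 catabolic genes lie to the right of 0, and Odc1, Sms and Oaz1 lie to the left of it with intervals that exclude 0.

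To compare genes without regard to library scaling, ratios of 5 pairs were taken within each library. With 20 ways to assign 6 libraries to the groups, a two-sided exact permutation test cannot give less than 0.1, so no pair could pass 0.05. *Sat1* to *Odc1*, the first catabolic against the first synthetic enzyme, was at 0.131, 0.0856 and 0.133 in Ctrl and at 0.314, 0.232 and 0.285 in the libraries labelled *Upf1*-cKO. On the log2 scale the difference was 1.27 (exact permutation p 0.1, 0.167 adjusted over the 5 pairs), with every library of the second group above every Ctrl library. The antizyme inhibitor to antizyme ratio, *Azin1* to *Oaz1*, was at 1.42, 1.25 and 1.40 in Ctrl and at 2.04, 1.81 and 1.78 in the second group, again without overlap (log2 difference 0.47, exact permutation p 0.1, adjusted 0.167).

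The ratio of *Odc1* to *Oaz1*, the enzyme and the protein that destroys it, was 0.582, 0.882 and 0.676 in Ctrl and 0.642, 0.685 and 0.581 in the libraries labelled *Upf1*-cKO, with overlap (log2 difference -0.15, exact permutation p 0.6, adjusted 0.6). The log2 difference was 0.02 without Ctrl library 2 and -0.28 without Ctrl library 1. *Oaz1* to *Oaz2* was at 7.15, 8.41 and 9.998 in Ctrl and at 6.67, 6.68 and 6.74 in the second group, a log2 difference of -0.33 (exact permutation p 0.1, adjusted 0.167) that was -0.21 without Ctrl library 3. *Srm* to *Sms* was at 0.934, 1.43 and 0.863 in Ctrl and at 1.54, 1.62 and 1.40 in the second group. Ctrl library 2 overlapped the second group for this pair (log2 difference 0.53, exact permutation p 0.2, adjusted 0.25).

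**Figure D3:**
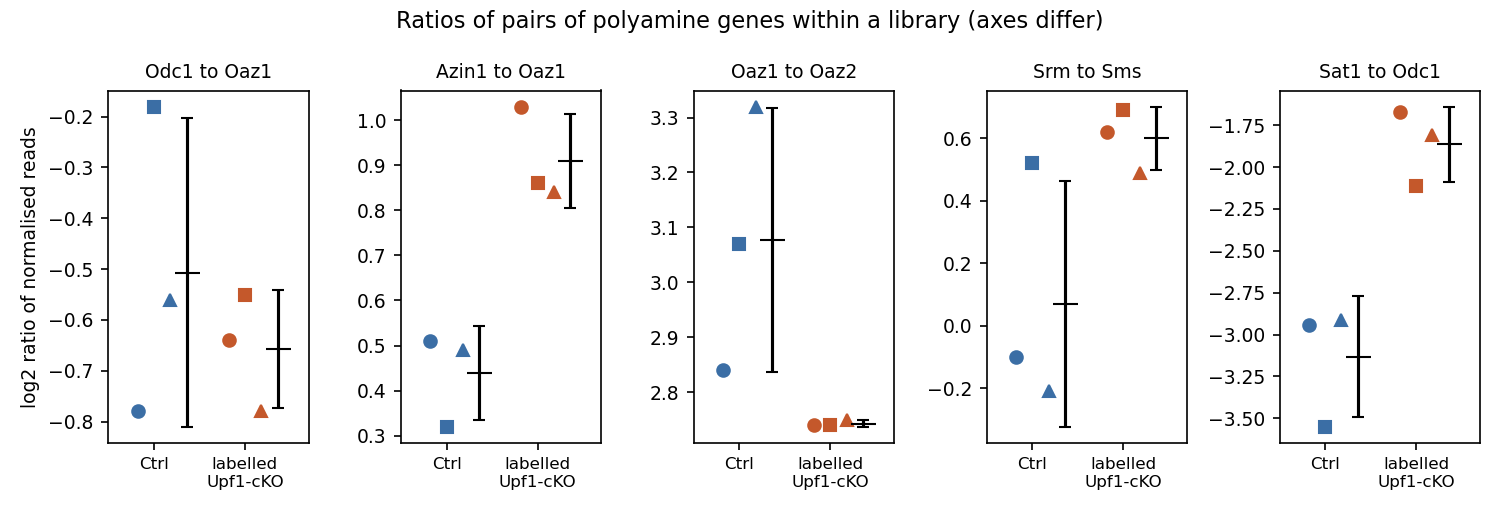
Log2 ratio of normalised reads of 2 genes in the same library (y axis, range differing by panel) for 5 pairs, with 3 Ctrl libraries (blue) and 3 libraries labelled Upf1-cKO (orange), the replicate shown by circle (1), square (2) or triangle (3), and the mean ± SD in black. Sat1 to Odc1 and Azin1 to Oaz1 are higher in the libraries labelled Upf1-cKO without overlap, Oaz1 to Oaz2 is lower without overlap, and the other pairs overlap.

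Levels of different genes were compared per kb of the gene's exons merged over transcripts. *Oaz1* was highest in Ctrl, at 88.0 ± 2.43 normalised reads per kb (SD, n = 3). It was followed by *Azin1* (48.7 ± 2.39), *Odc1* (47.3 ± 11.4) and *Srm* (46.7 ± 14.5), whose libraries overlapped from each to the next. *Amd1* (11.9 ± 1.64) and *Sms* (11.5 ± 0.402) overlapped as well. *Oaz2* (8.98 ± 1.34), *Sat1* (6.53 ± 0.698), *Paox* (1.36 ± 0.188) and *Smox* (0.231 ± 0.0366) came below, each separate from its neighbour. On this length, transcripts of the antizyme that restrains ODC1 were above those of *Odc1* itself, and the oxidases were the lowest. With the longest transcript as length, *Odc1* was at 57.6, 92.2 and 69.1 per kb in Ctrl libraries 1, 2 and 3 and *Oaz1* at 86.5, 91.4 and 89.4, which overlap.

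In the libraries labelled *Upf1*-cKO *Oaz1* was still highest (61.1 ± 3.50 per kb) and *Paox* and *Smox* still lowest (2.11 ± 0.157 and 1.05 ± 0.253). *Sat1*, at 9.85 ± 0.964 per kb, went from place 8 to place 6, and *Sms*, at 6.84 ± 0.425, from 6 to 8, below both *Sat1* and *Oaz2* (7.81 ± 0.401). *Srm* (39.0 ± 1.88) stood above *Odc1* (29.1 ± 1.68) without overlap, while in Ctrl these overlapped. With the longest transcript as length they overlapped in this group as well, *Srm* at 49.0, 46.1 and 44.6 and *Odc1* at 43.2, 47.9 and 43.7. The only neighbours that overlapped in this group were *Amd1* and *Sat1*. The order depends on the length used. With the longest transcript in place of merged exons, 4 of 10 genes kept their place in Ctrl, and by group means *Oaz1* was first and *Paox* and *Smox* last.

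**Figure D4:**
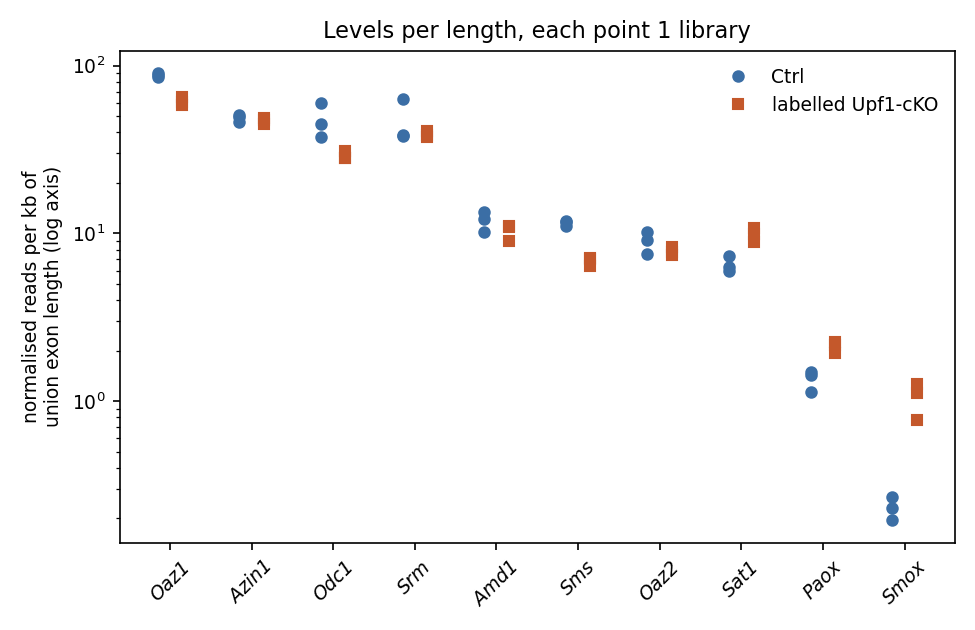
Normalised reads per kb of merged exon length (y axis, log scale) for each gene, ordered by the Ctrl mean, with 1 point per library for Ctrl (blue circles) and for libraries labelled Upf1-cKO (orange squares). Oaz1 is highest and Smox lowest in both groups, and Sms and Sat1 exchange places.

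Annotated NMD transcripts, those whose reading frame ends upstream of an exon junction, were then counted among the 10 genes. GENCODE lists at least 1 for 6 of them, namely *Odc1* (2), *Azin1* (2), *Sms* (1), *Sat1* (1), *Smox* (3) and *Paox* (1), against 29.3% of 11969 protein-coding genes in the table. The 6 include all of the higher genes, *Odc1* and *Sms* among the lower ones, and *Azin1*, which did not pass. A link between the annotation and the direction was not tested, and values per gene do not resolve transcripts. Between 3 and 17 transcripts are annotated per gene, the most for *Smox*. The stops of the NMD transcripts of the higher genes are shown as the last 30 bases of the reading frame, from the transcript's own strand, with the stop codon in capitals. That of *Sms*, which was lower, is given for comparison.
Sat1-207: cactggacccctgaaggttacagtctcTAG
Smox-215: cttgtcactaccaggagacaccaccttTGA
Smox-216: gctcaagtggggcggatgtggagaagcTAG
Smox-217: tacctgaagagcgctatggccatgtgcTGA
Paox-203: ggctttacaagaaatggaaggttttctTAA
Sms-204: cagattccacatgggatttcctcagacTGA

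The stop of Sat1-207 (GRCm38, chrX:155215217-155215219, minus strand) lies in exon 4 of 7, an exon of 110 bases (chrX:155215121-155215230) that overlaps no exon of a coding *Sat1* transcript, with 3 junctions after it. Inclusion of an extra exon of this kind is a known way in which *Sat1* RNA is routed to NMD when polyamines are scarce. The stops of Smox-215 (chr2:131516230-131516232), Smox-216 (chr2:131522179-131522181) and Smox-217 (chr2:131521073-131521075), all on the plus strand, have 1, 2 and 2 junctions after them. That of Paox-203 (chr7:140129025-140129027, plus strand) has 1. In Sms-204 the stop (chrX:157454887-157454889, minus strand) is followed by 2 junctions. All of these but Sat1-207 end in an exon that overlaps one used by coding transcripts. Odc1-205, Odc1-208, Azin1-202 and Azin1-205 end with 3, 8, 1 and 6 junctions after the stop.

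Start codons in the leader, another feature tied to UPF1, were present in 5 of 10 principal transcripts and in 52.3% of 11793 genes. *Sms* had 4, *Azin1* 3, *Odc1* and *Sat1* 2 each and *Amd1* 1, and *Oaz1*, *Oaz2*, *Srm*, *Smox* and *Paox* had 0. They were present in genes that were lower, higher and not called. Promoter windows from RefSeq (GRCm38.p6, 250 bases before to 50 after the start) matched 8 of the 10 genes. *Azin1* and *Srm* had no window, and sites outside the windows were not searched for any gene. The E-box CACGTG, which reads the same on both strands and is bound by MYC among others, was in the window of *Sms* alone, 196 bases before its start, and in 7.15% of 32851 promoter windows. The letters TGATGCAA or their reverse complement TTGCATCA, bound by ATF4 with its partners, were in 0.89% of windows and in none of the 8.

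Genes that feed or use the pathway were taken from 6 lists, of which 33 of 48 genes had a row in the table used. At an adjusted p of 0.05, 10 were higher and 6 were lower, with a median log2 fold change of 0.11. Of all genes 27.7% were higher and 25.0% lower (52.7% either way, median 0.01), so counts for the lists, each of 3 to 10 genes, are given as a description and single out no list. Ornithine and arginine supply had 4 higher and 1 lower of 10 genes (median 0.34). *Aldh18a1*, which makes the precursor of ornithine and proline from glutamate, rose from 77.1, 112 and 86.9 to 195, 180 and 192 (log2 fold change 1.05, adjusted p 6.21e-07). *Gatm*, which consumes arginine and forms ornithine on the way to creatine, rose from 1.37 ± 0.527 to 5.40 ± 0.919 (1.45, adjusted p 2.41e-05). *Slc7a1*, an importer of arginine, ornithine and lysine, rose from 144 ± 23.2 to 214 ± 7.84 (0.58, adjusted p 4.92e-05).

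The lists for S-adenosylmethionine and for hypusination, in which spermidine modifies the translation factor eIF5A, held changes both ways. *Ahcy*, which clears the by-product of methylation reactions, fell from 144 ± 14.7 to 92.4 ± 6.17 (log2 fold change -0.63, adjusted p 9.12e-06) and *Mat2a*, the S-adenosylmethionine synthetase, from 311 ± 33.8 to 246 ± 13.1 (-0.33, adjusted p 0.00268). *Enoph1*, of the salvage route that recycles the by-product of spermidine and spermine synthesis, rose from 27.3 ± 3.49 to 60.5 ± 2.33 (1.12, adjusted p 6.94e-08). In all, 1 of 9 genes of that list was higher and 2 were lower (median 0.11). *Eif5a* fell from 950 ± 139 to 614 ± 18.5 (-0.62, adjusted p 1.14e-05) while *Dhps*, which starts its hypusination with spermidine as donor, rose from 21.4 ± 3.98 to 42.1 ± 4.10 (0.95, adjusted p 5.11e-06). The other 2 of 4 genes were not called, and the median was 0.09. *Enoph1*, *Mat2a*, *Eif5a* and *Dhps* each overlap another measured gene, so their values are uncertain.

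Transport had 2 higher genes of 4 (median 0.38), to be read against the same 27.7% of all genes. These were *Slc3a2*, the heavy chain of several amino acid exchangers (83.7 ± 10.1 to 113 ± 5.65, log2 fold change 0.44, adjusted p 0.000504) and *Atp13a2*, a lysosomal polyamine exporter (167 ± 17.8 to 215 ± 6.93, 0.36, adjusted p 0.00114). Terminal oxidation had 2 lower genes of 3 (median -0.28), *Aldh9a1*, which oxidises an aldehyde derived from putrescine (94.1 ± 8.33 to 60.6 ± 5.26, -0.63, adjusted p 1.85e-05) and *Aldh2*, the mitochondrial aldehyde dehydrogenase (156 ± 14.9 to 127 ± 0.358, -0.28, adjusted p 0.00734). Of 3 paralogs of the 10 genes, 2 had more reads in the libraries labelled *Upf1*-cKO. Both were below 0.5 normalised reads in every Ctrl library and above it in every library of the other group, so they had a row only through the group where they are high, and no test is given for them, although they are 2 of the 10 genes counted as higher above. *Azin2*, a second antizyme inhibitor, had 0, 1 and 1 reads in Ctrl and 21, 25 and 17 in the libraries labelled *Upf1*-cKO. *Oaz3*, the testis antizyme, had 3, 4 and 3 reads and 22, 13 and 14, and overlaps *Tdrkh*.

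Finally, the genes whose log2(value + 1) most resembled that of *Odc1* over the 6 libraries were listed, among 9201 genes with a mean of at least 3. They were *Tpi1* (Pearson r 0.996), *Gart* (0.996), *Pkm* (0.995), *Ccnt1* (0.995) and *3830406C13Rik* (0.993). *Tpi1* and *Pkm* encode enzymes of glycolysis and *Gart* one of purine synthesis. The libraries share the group difference and the height of Ctrl library 2, on which these values rest. *Tpi1*, for example, was at 177, 243 and 199 in Ctrl and at 133, 145 and 135 in the libraries labelled *Upf1*-cKO, and each of the 5 genes was highest in Ctrl library 2 and lowest of the Ctrl group in library 1, as *Odc1* was. Among the other 9 polyamine genes r with *Odc1* ran from 0.88 for *Oaz1* and 0.86 for *Sms* to 0.03 for *Azin1* and -0.84 for *Smox*.

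The 6 called genes were then followed through the alternative settings. *Odc1* ran from -0.82 to -0.47 on the log2 scale, *Sms* from -0.85 to -0.54 and *Oaz1* from -0.63 to -0.32. *Sat1* ran from 0.46 to 0.76, *Smox* from 1.25 to 2.23 and *Paox* from 0.39 to 0.76. None of the 6 changed direction in the settings that gave it a value. *Odc1*, *Oaz1*, *Azin1* and *Smox* overlap annotated non-coding or small RNA genes that have no row in the table used, so some of their reads may be shared.

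**Figure D5:**
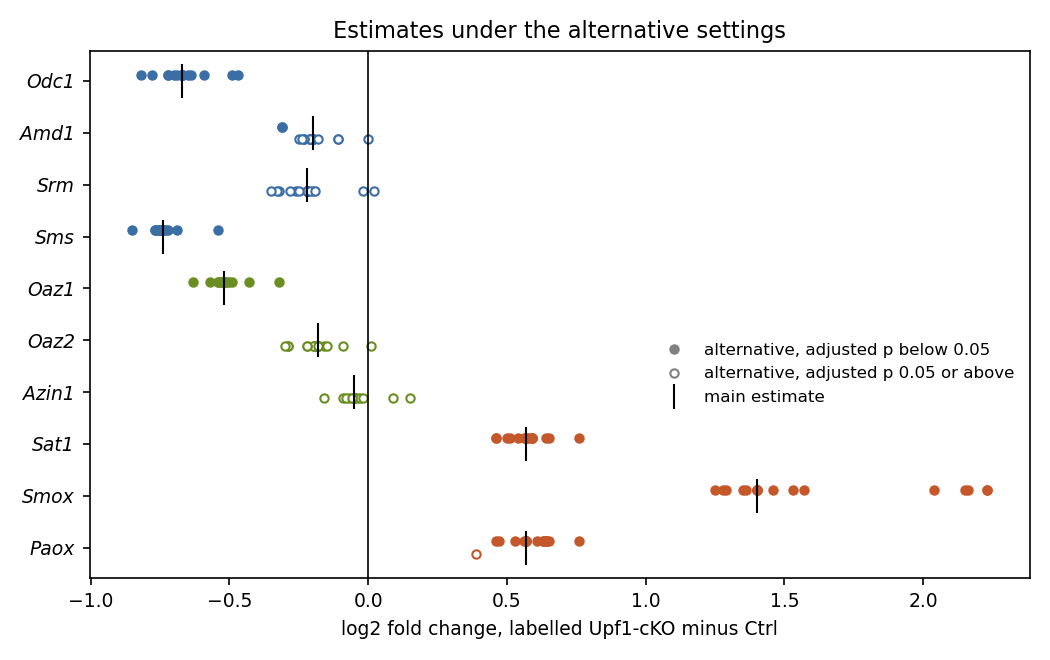
Log2 fold change, labelled Upf1-cKO minus Ctrl (x axis), of each gene under each alternative setting (points, filled where the adjusted p was below 0.05) and as reported (black bar). Odc1, Sms, Oaz1, Sat1 and Smox stay on their side of 0 and below an adjusted p of 0.05 in each setting that gave a value, and Paox passes in all but 1.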

How the data were processed

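For 6 libraries the authors deposited signal values on a linear scale, 1 row per Entrez ID. Per the study's methods and the submitters' processing notes, ribosomal RNA was depleted, libraries were made with a directional kit, and reads were trimmed with cutadapt 4.0, aligned to mm10 (GRCm38) with HISAT2, counted per gene with featureCounts 2.0.1 and analysed with limma 3.48.0. The study's methods give alignment as unstranded and no strand setting for the counting, so values of overlapping genes are uncertain. In each column, deposited signal values stood at odd multiples of the lowest, within 0.02 of a whole step, which is what reads with 0.5 added give when scaled. Whole reads were recovered for 100% of values. All 13426 genes were above 0.5 reads per 1000000 in 3 or more libraries, so all 10 polyamine genes had passed a filter on low values. A gene can pass it through 1 group alone, as *Azin2* and *Oaz3* did. Total reads were similar in all libraries, while effective library sizes were larger in those labelled *Upf1*-cKO. Genes with few reads (*Smox*, *Azin2*, *Oaz3*) are the least precise, and without molecular identifiers reads cannot be taken as independent molecules.

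The test was limma 3.58.1 (R 4.3.3), fitted to log2(value + 1) with group as its term and with trended, robust eBayes. P-values were adjusted by Benjamini-Hochberg across the 13426 genes. Adjusted p-values are from it unless another tool is named. On this scale changes of low genes are understated. The code was tested on simulated data. Libraries of a group differed by more than counting noise (chi-square per degree of freedom 4.53 to 23.43). Ratios were tested by exact permutation. Alternatives were a replicate block, other pseudocounts and minimum levels, eBayes without trend, voom, edgeR 4.0.16 and DESeq2 1.42.0 on recovered reads, scaling to total reads, median centring, quantile normalization and leaving out each library.

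The genes and lists were chosen with earlier results of these data known. Named genes are the 10 genes, *Upf1*, for each list up to 3 called genes with the largest log2 fold change of either sign, the 5 genes most like *Odc1*, and markers by level. *Echs1* and *Xist* were added after values were seen, and *Amd2* is a listed paralog. Symbols came from RefSeq GRCm38.p6 (13008) and GENCODE M21 (3), and 415 rows had no name. Transcripts, lengths and sequences are from GENCODE M21. Protein sequences were not analysed here. The level of 1 listed marker gene is not reported here.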

Additional observations from a re-analysis of the deposited data

How the results depend on the processing

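Log2 fold changes of the 6 called genes kept their direction in 107 of 107 alternative values and their side of the threshold in 106. The exception was *Paox* after quantile normalization (0.39, adjusted p 0.0576, in a range over its alternatives from 0.000843 to 0.0576). The cause was not tested. With a minimum mean log2 value of 3, *Smox* was not among the genes fitted. *Amd1* passed with median centring (-0.31) and, leaving out each library, ranged from -0.31 to -0.11. Among genes not called, the sign turned for *Oaz2* (0.012) and *Azin1* (0.149) under total reads, for *Azin1* (0.094) under quantile normalization and for *Srm*, which ran from -0.345 to 0.023 when libraries were left out. The *Odc1* to *Oaz1* log2 ratio ran from -0.283 to 0.016 in the same way. *Upf1* lost the threshold with eBayes without trend (0.31) and with median centring (0.20). Scaling to total reads, which moved the median of all genes to 0.19, gave 1936 lower genes, and 16 higher and 3 lower genes of the pathway lists. Of the genes called, 52.6% were higher as reported, 72.8% under total reads and 40.7% with median centring. With the longest transcript as length, 4 genes kept their place.

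Libraries with the same replicate number carry adjacent numbers in their deposited names, but the labels do not say that they were paired. Deviations from group means of libraries with the same replicate number correlated at 0.126, -0.063 and -0.079. Not every library correlated best with its own number. With 3 libraries per group this cannot show whether libraries were paired. With the replicate block 3668 genes were higher and 3321 lower, and the 3 higher and 3 lower polyamine genes were the same ones. For the ratios the block leaves the difference as it is by construction (*Sat1* to *Odc1* 1.27), and its exact sign-flip permutation p, which cannot go below 0.25 with 3 pairs, was 0.25 for that pair, against 0.1 without the block.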
